A study of Homo sapiens with 6 samples.

Results

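Histone and DNA modifying enzymes were followed in ME-1 cells, an established human line of acute myeloid leukaemia with the fusion gene CBFB::MYH11, after transduction with a vector for SPNS2 or with an empty vector. SPNS2 exports sphingosine-1-phosphate from cells. The set held every protein-coding gene of the deposited count table whose symbol belongs to the KMT, SETD, EZH, PRMT, KDM, HDAC, SIRT, DNMT or TET families, with KDM5D left out. It came to 70 genes of the 34371 features in the table, and 66 of them had enough counts to be tested. SIRT2 was not analysed here. A further 15 rows with matching symbols were pseudogenes, among them copies of KMT2C, HDAC1, KMT5A, PRMT1 and PRMT5. These held 0 counts in all libraries, and how reads shared with them were assigned is not given.

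The comparison had 3 empty vector libraries (ME-1_CTRL) and 3 SPNS2 libraries (ME-1_SPNS2) of polyadenylated RNA, both taken after selection of transduced cells. All 6 libraries came from the same cell line, and the labels do not say whether the transduced cells were a pool or a clone, which promoter drove SPNS2, or whether each library had its own culture. For that reason a p-value speaks of the spread among these 6 libraries alone, which may be technical. Library totals ran from 28605187 to 38489992 counts. Vector SPNS2 had its own row, with 24792 to 25752 counts in the SPNS2 libraries and 9, 3 and 0 counts in the empty vector libraries. Of the myeloid markers, MPO, the myeloperoxidase of granules, stood at 26140 ± 221 CPM in the controls and 26003 ± 759 CPM in the SPNS2 libraries (CPM are counts scaled to library size; SD, n = 3 each) and did not pass, KIT and PTPRC rose, and CD33 and CD34 fell. The MYH11 row held 39 counts over the 6 libraries, and how reads of the fusion transcript were assigned is not given in the sources used here. Of 12 markers of other cell types, 5 were at 0 counts (CDH5, HBB, KRT18, MS4A1 and PPBP). Their summed level was 126 to 134 CPM with the empty vector and 147 to 150.1 CPM with SPNS2, nearly all of it EPCAM, an epithelial adhesion protein, which rose (log2 fold change 0.19, edgeR adjusted p = 0.00137). The T cell marker CD3E rose too, from 0.494 to 0.892 CPM (edgeR adjusted p = 0.0298), but a single marker of the list was called in each fit that left out 1 library other than empty vector library 2. The part of these markers in the results on modifying enzymes was not tested.

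These enzymes write and remove chemical groups on chromatin. Lysine and arginine methyltransferases use S-adenosylmethionine to methylate histone tails, demethylases of the KDM families take methyl groups off, zinc deacetylases and sirtuins remove acetyl groups, and DNMT and TET enzymes add and oxidise the methyl group of cytosine. DNMT3A, TET2, EZH2, KMT2A and KDM6A are recurrently mutated or rearranged in leukaemia, and several enzymes of these families, such as KDM1A, EZH2, HDACs and PRMT5, are drug targets there.

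The enzymes moved singly and by small amounts, without a shift of the whole set. Of the 66 genes tested, 12 rose and 7 fell at an adjusted p under 0.05 (edgeR quasi-likelihood test, Benjamini-Hochberg over all 13308 features), and 47 did not pass. These 19 genes were 28.8% of those tested, beside 24.5% of all features called (11.9% higher and 12.6% lower), so the share was near the background. By class the share called ran from 26.3% of lysine methyltransferases to 33.3% of sirtuins and of DNMT and TET genes. Most of the enzymes were well expressed, with a median of 60.2 CPM beside 23.0 CPM for all tested features, and a refit limited to features with a mean of at least 5 CPM called 18 of 60 of them (30.0%) and 30.8% of all. The median log2 fold change was -0.00 for the 66 genes and 0.00 for all features. The largest called changes were a fall of KDM7A (-0.57) and rises of HDAC5 (0.34) and KDM1B (0.33), followed by the fall of DNMT1 (-0.24), and 0 of the 19 reached 2-fold. In bulk RNA, fewer cells that express a gene and less RNA per cell cannot be told apart.

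The genes together took a similar part of each library. Their summed counts were 0.481%, 0.465% and 0.464% of all counts in empty vector libraries 1 to 3 and 0.464%, 0.475% and 0.465% in SPNS2 libraries 1 to 3, so the groups overlapped. Groups did not overlap for 14 genes that were higher and 10 that were lower with SPNS2, in all 24 of the 66, beside 40.1% of all features (19.8% higher and 20.3% lower). The number that rose was less firm than the number that fell. Without empty vector library 3 it was 7 and without SPNS2 library 2 it was 6, while 6 fell in both fits. Of the 6 falls without SPNS2 library 2, only 5 were among the 7 of the full comparison. KMT2D, which did not pass there, was gained. Without any single library, 11 of the 19 were called each time (6 higher and 5 lower), and the other 8 are named below with their values.

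**Figure D1:**
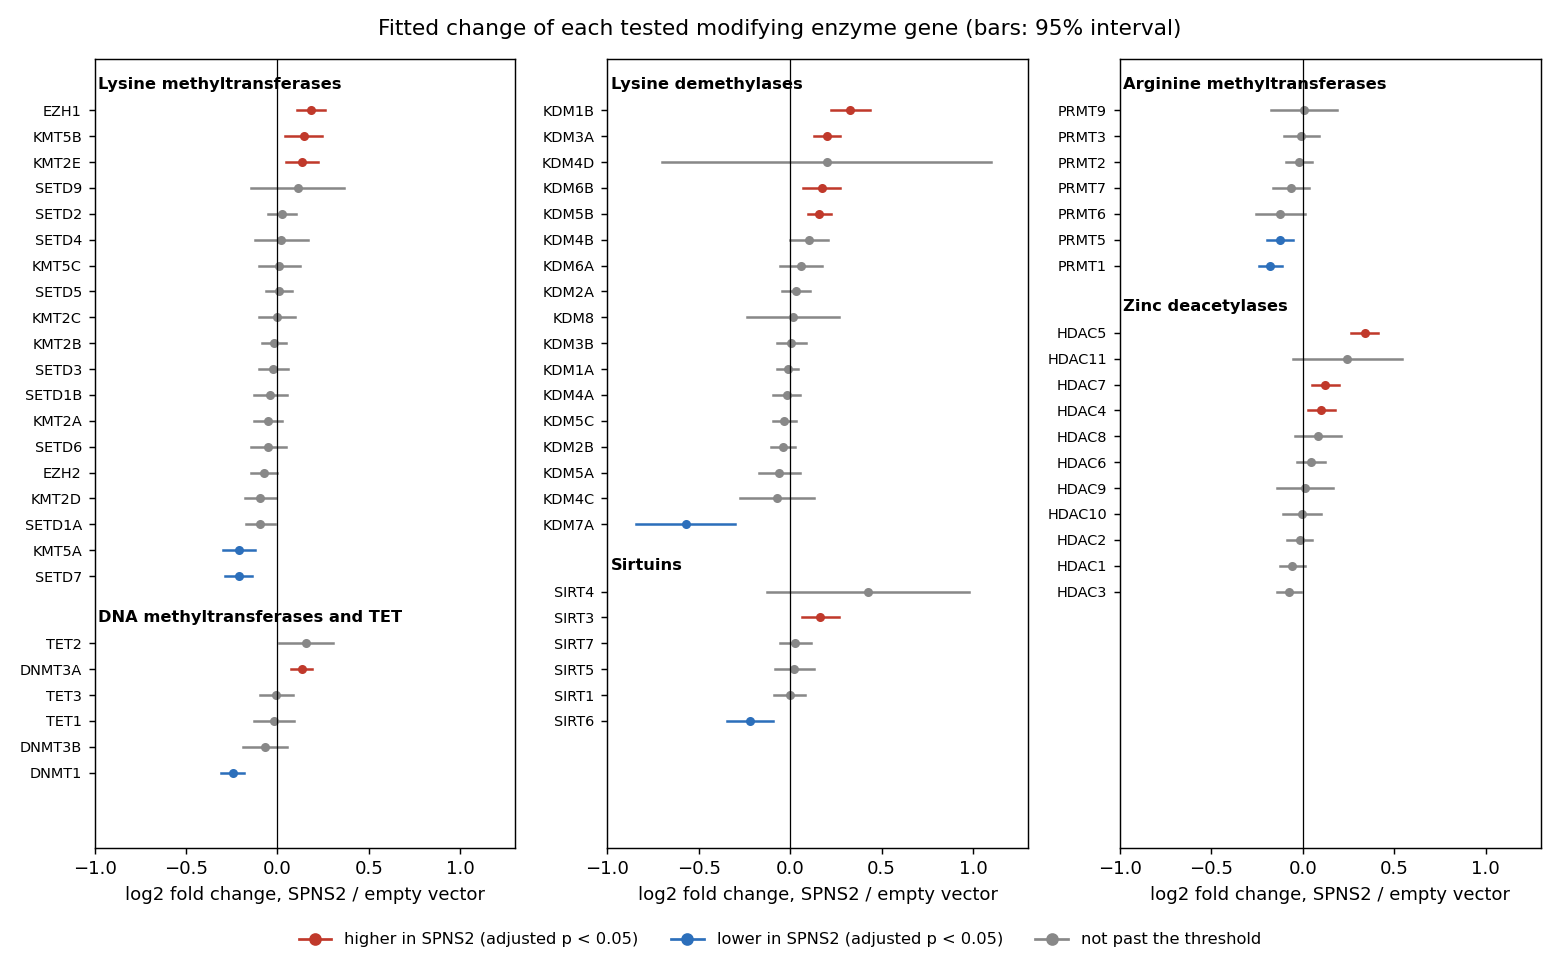
Fitted log2 fold change (x axis, SPNS2 over empty vector) of the 66 tested genes by enzyme class, with 95% intervals from the edgeR fit. Red genes were higher and blue genes lower in the SPNS2 libraries at an adjusted p under 0.05, 12 and 7 in number, and the 47 grey genes did not pass. KDM4D and SIRT4, both below 1 CPM, have the widest intervals.

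Promoters of 4 genes that changed are shown, PRMT1 and PRMT5 because they fell together, and KDM1B and EZH1 because they rose while a paralog did not pass. Other genes that meet this second reason, such as KDM3A, are not shown. Each is the 250 bases before the RefSeq start (GRCh38.p14), from chr19:49677021-49677270 (+) for PRMT1, chr14:22929377-22929626 (-) for PRMT5, chr6:18155172-18155421 (+) for KDM1B and chr17:42745041-42745290 (-) for EZH1. Capitals mark exact matches on either strand to CCAAT, to the GC box letters GGGCGG, or to the E2F letters TTTCCCGC, TTTGGCGC, TTTCGCGC and TTTGCCGC.
PRMT1: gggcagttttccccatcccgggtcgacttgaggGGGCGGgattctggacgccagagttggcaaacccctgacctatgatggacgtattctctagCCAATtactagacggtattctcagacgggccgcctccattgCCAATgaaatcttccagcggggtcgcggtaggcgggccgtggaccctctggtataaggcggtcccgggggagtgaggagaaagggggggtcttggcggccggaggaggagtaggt
PRMT5: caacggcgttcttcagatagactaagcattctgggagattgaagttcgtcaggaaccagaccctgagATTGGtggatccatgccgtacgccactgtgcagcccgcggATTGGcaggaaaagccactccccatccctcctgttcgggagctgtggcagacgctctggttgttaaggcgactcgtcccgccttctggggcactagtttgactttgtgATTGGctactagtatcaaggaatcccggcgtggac
KDM1B: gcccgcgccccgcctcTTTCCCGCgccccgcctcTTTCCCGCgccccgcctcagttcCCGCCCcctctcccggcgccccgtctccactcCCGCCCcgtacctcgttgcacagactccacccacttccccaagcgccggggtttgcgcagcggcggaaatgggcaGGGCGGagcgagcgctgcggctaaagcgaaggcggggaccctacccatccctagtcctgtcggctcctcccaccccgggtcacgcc
EZH1: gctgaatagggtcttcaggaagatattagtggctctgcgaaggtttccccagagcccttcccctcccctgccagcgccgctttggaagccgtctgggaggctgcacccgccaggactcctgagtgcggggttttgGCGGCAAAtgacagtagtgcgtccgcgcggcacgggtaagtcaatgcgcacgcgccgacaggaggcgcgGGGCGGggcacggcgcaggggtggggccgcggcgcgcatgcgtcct
PRMT1 held 2 CCAAT matches and PRMT5 held 3, while the windows of KDM1B and EZH1 held E2F letters, 2 matches and 1, and no CCAAT. RefSeq promoters were found for 65 of the 70 genes, and a gene with several starts was counted if any of its windows matched. CCAAT stood in the promoters of 4 of 7 genes that fell, 1 of 11 that rose (KDM3A), 19 of 45 that did not pass and 41.6% of all 10121 tested genes with a promoter. E2F letters were found for 1 of 7 genes that fell, 2 of 11 that rose, 1 of 45 that did not pass and 5.6% of all. Those 2 were KDM1B and EZH1, so the promoters shown do not stand for the other genes that rose. The ETS letters CCGGAAGT stood in 2 of 63 promoters of the set (3.17%) and in 8.21% of all, and the E-box CACGTG in 11 of 63 (17.5%) and in 11.2% of all. GC boxes stood in 48 of 63 (76.2%) and in 74.2% of all, the CRE letters TGACGTCA in 1 of 63 (1.59%) and in 3.32% of all, and the palindromic NRF1 motif in 3 of 63 (4.76%) and in 2.39% of all. Among 13 promoters of the cycling genes, 11 held CCAAT and 6 held E2F letters. The windows of the set had a median GC content of 67.3%, beside 64.4% for all. Such matches describe letters only and show no binding.

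Lysine methyltransferases split between rises and falls, with 3 of 19 higher and 2 lower (26.3% called, beside 24.5% of all features). SETD7 (ENSG00000145391.14), which monomethylates histone H3 lysine 4 and many other proteins, was at 48.6, 48.4 and 46.1 CPM in empty vector libraries 1 to 3 and at 41.5, 40.6 and 41.3 CPM in SPNS2 libraries 1 to 3. All SPNS2 libraries were below all controls, and SETD7 fell by 0.21 in log2 units (SE 0.0345, edgeR adjusted p = 0.00123). KMT5A (ENSG00000183955.13), the enzyme that monomethylates histone H4 lysine 20 and is regulated through the cell cycle, was at 67.8, 64.9 and 66.5 CPM with the empty vector and at 60.5, 56.8 and 55.0 CPM with SPNS2. KMT5A also fell by 0.21 with no overlap of the groups (SE 0.0390, adjusted p = 0.00276). KMT5B (ENSG00000110066.15), which adds further methyl groups at the same lysine, went the other way, from 29.1, 29.8 and 28.4 CPM to 30.7, 33.4 and 32.3 CPM (log2 fold change 0.14, adjusted p = 0.0397). KMT5C, its close relative, was at 23.4 ± 1.28 and 23.6 ± 0.475 CPM (SD, n = 3 each) and did not pass.

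EZH1 and EZH2 are alternative catalytic subunits of Polycomb repressive complex 2, which methylates histone H3 lysine 27, and EZH2 is the form linked to dividing cells. EZH1 (ENSG00000108799.13) was at 62.3, 59.1 and 59.3 CPM in the empty vector libraries and at 66.6, 68.9 and 69.9 CPM in the SPNS2 libraries. It rose in all SPNS2 libraries, by 0.18 in log2 units (SE 0.0345, edgeR adjusted p = 0.00293). EZH2 was at 64.8, 61.3 and 64.3 CPM and at 59.9, 60.0 and 61.2 CPM, values that did not overlap but did not pass (log2 fold change -0.07, adjusted p = 0.133). The ratio of EZH1 to EZH2 counts within a library was 0.961, 0.965 and 0.922 in the empty vector libraries and 1.11, 1.15 and 1.14 in the SPNS2 libraries. This ratio, chosen after the values were seen and not tested, was above 1 in every SPNS2 library and below 1 in every control, though per length EZH2 was the higher of both, at 24.1 CPM per kb beside 13.0 CPM per kb for EZH1 with the empty vector and 22.9 beside 14.8 with SPNS2.

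KMT2E (ENSG00000005483.21), a SET domain protein without established methyltransferase activity, was at 79.2, 79.7 and 77.2 CPM with the empty vector and at 83.8, 91.8 and 83.5 CPM with SPNS2, where library 2 stood highest. Its log2 fold change was 0.13 (adjusted p = 0.0302 by edgeR). The H3K4 methyltransferases of the COMPASS type, KMT2A to KMT2D, SETD1A and SETD1B, gave 0 calls among 6 at the threshold, beside 24.5% of all features. Their log2 fold changes ran from -0.09 to -0.00. By edgeR without a single library, KMT2D passed once (adjusted p = 0.0133 without SPNS2 library 2) and SETD1A once (0.0403 without empty vector library 2). SETD1A was at 73.5, 67.3 and 70.6 CPM and at 66.8, 66.4 and 65.2 CPM, with no overlap and an adjusted p of 0.0836. KMT2D, the most counted of the class, was at 215 ± 4.93 and 202 ± 11.4 CPM (SD, n = 3 each), KMT2B at 117 ± 2.13 and 115 ± 2.84, KMT2C at 95.3 ± 3.17 and 95.3 ± 6.19, KMT2A at 81.8 ± 0.739 and 79.1 ± 3.34, and SETD1B at 51.9 ± 1.97 and 50.5 ± 2.05 CPM. For KMT2A, which is rearranged in other leukaemias, the 95% interval of the log2 fold change ran from -0.13 to 0.03.

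The remaining SET domain genes did not pass. SETD2, which trimethylates histone H3 lysine 36, was at 93.8 ± 2.52 and 95.4 ± 3.38 CPM (SD, n = 3 each; interval of the log2 fold change -0.05 to 0.10). SETD3, an actin histidine methyltransferase, had the highest level per length of the class, 24.4 CPM per kb with the empty vector, with 66.9, 72.8 and 71.3 CPM and 69.4, 69.0 and 69.1 CPM in the 6 libraries. SETD5 was at 102 ± 2.27 and 103 ± 3.34 CPM, SETD6 at 30.5 ± 0.973 and 29.5 ± 0.781 CPM, and SETD4 at 12.4 ± 0.648 and 12.6 ± 0.485 CPM. SETD9 held 3.09, 3.34 and 3.13 CPM and 3.36, 3.60 and 3.35 CPM, without overlap but with an adjusted p of 0.536. Of the 3 rises in the class, those of KMT2E and KMT5B passed near the threshold. Fewer of all features were called without a library too, 2246 to 2738 beside 3263. KMT2E lost its call in 4 of the 6 fits without a library (edgeR adjusted p = 0.0517 to 0.112), at log2 fold changes of 0.09 to 0.14. KMT5B lost it in 4 (0.0768 to 0.130), at 0.11 to 0.14. Its call was also lost with DESeq2 (0.102) and with the replicate number as a block (0.0529). This left 1 rise without SPNS2 library 2 and without empty vector library 1 or 3.

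Of 7 arginine methyltransferases tested 2 fell and 0 rose (28.6% called, beside 24.5% of all features and 12.6% lower). PRMT1 (ENSG00000126457.22) makes most of the asymmetric dimethylarginine in cells and had the highest level per length of the whole set, 190.2 CPM per kb with the empty vector. It was at 330.4, 313 and 319 CPM in empty vector libraries 1 to 3 and at 278, 289 and 284 CPM in SPNS2 libraries 1 to 3. Every SPNS2 library lay below every control, and PRMT1 fell by 0.18 in log2 units (SE 0.0282, edgeR adjusted p = 0.00110). PRMT5 (ENSG00000100462.16), the main enzyme for symmetric dimethylarginine, was at 116, 109 and 109.7 CPM and at 104, 103 and 101 CPM, a fall of 0.12 (SE 0.0323, adjusted p = 0.0174). The call of PRMT5 was lost without SPNS2 library 2 or 3 (adjusted p = 0.0523 and 0.0603), which left 1 fall in the class.

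The other arginine methyltransferases did not pass. PRMT2, a weakly active enzyme, was at 79.4 ± 2.55 and 78.3 ± 0.407 CPM (SD, n = 3 each). PRMT7, which makes monomethylarginine, was at 46.9 ± 0.935 and 44.8 ± 2.91, PRMT6 at 25.3 ± 1.54 and 23.2 ± 1.52, PRMT3, which methylates a ribosomal protein, at 23.9 ± 0.455 and 23.8 ± 0.417, and PRMT9 at 9.11 ± 0.621 and 9.16 ± 0.412 CPM. PRMT6 had a log2 fold change of -0.12 like PRMT5 but a wider interval, from -0.26 to 0.01. PRMT8, a neuronal enzyme, held 37 counts over the 6 libraries and was not tested. The summed level of the class was 605 to 635 CPM with the empty vector and 561 to 569 CPM with SPNS2, without overlap, and PRMT1 made up most of this difference.

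**Figure D2:**
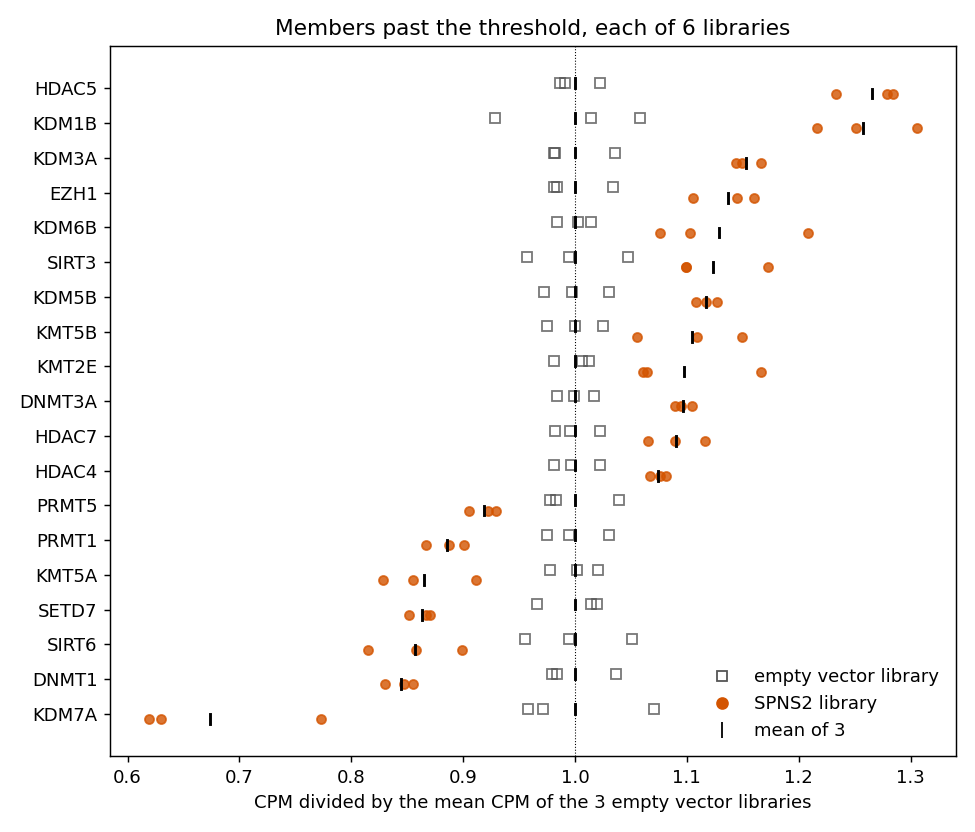
CPM of the 19 genes that passed, in each of the 6 libraries, divided by the mean of the 3 empty vector libraries (x axis). Open squares are empty vector libraries, filled circles SPNS2 libraries and black ticks group means, and the groups do not overlap for any of the 19. SPNS2 library 2 stands above the other SPNS2 libraries for KDM6B, KMT2E and SIRT3, and also for KDM1B, KDM5B, KMT5B and PRMT1.

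Among lysine demethylases 4 of 17 tested genes rose and 1 fell (29.4% called, beside 24.5% of all features, 11.9% higher and 12.6% lower). KDM1B (ENSG00000165097.16), a flavin-dependent demethylase of histone H3 lysine 4 known from oocyte imprinting, was at 41.6, 39.9 and 36.5 CPM in empty vector libraries 1 to 3 and at 49.2, 51.4 and 47.9 CPM in SPNS2 libraries 1 to 3. It rose by 0.33 on the log2 scale with all SPNS2 libraries above all controls (SE 0.0484, edgeR adjusted p = 0.000676). Its paralog KDM1A (LSD1), a target of inhibitors in acute myeloid leukaemia, had the highest level per length of the class, 59.1 CPM per kb. KDM1A was at 183, 179 and 179.6 CPM and at 177, 181 and 179 CPM, and the interval of its log2 fold change was narrow, from -0.07 to 0.04.

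The other rises were in the Jumonji families, iron and 2-oxoglutarate dependent oxygenases. KDM3A (ENSG00000115548.17), a demethylase of histone H3 lysine 9 that responds to hypoxia, was at 70.7, 67.0 and 67.1 CPM and at 78.5, 78.1 and 79.6 CPM (log2 fold change 0.20, SE 0.0323, adjusted p = 0.00105). KDM5B (ENSG00000117139.18), which demethylates histone H3 lysine 4, was at 152, 147 and 143 CPM and at 163, 166 and 165 CPM (log2 fold change 0.16, SE 0.0290, adjusted p = 0.00247). In both genes the SPNS2 libraries lay close together and above the controls. KDM6B (ENSG00000132510.11), an inducible demethylase of histone H3 lysine 27, was at 35.0, 34.4 and 35.4 CPM and at 38.5, 42.2 and 37.6 CPM (log2 fold change 0.17, adjusted p = 0.0183), with SPNS2 library 2 the highest. Its call was lost without that library (adjusted p = 0.0607) and without empty vector library 2 (0.0581).

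KDM7A (ENSG00000006459.11), a demethylase of histone H3 lysines 9 and 27, showed the largest called change of the set at a low level. It was at 5.34, 4.85 and 4.78 CPM with the empty vector and at 3.86, 3.09 and 3.14 CPM with SPNS2, from 206, 138 and 154 counts and 125, 97 and 106 counts. KDM7A fell by 0.57 on the log2 scale, with an interval of -0.84 to -0.30 (adjusted p = 0.00657 by edgeR), and was called without each single library.

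Close relatives of the demethylases that rose stayed without a call. KDM3B was at 129 ± 4.05 and 129 ± 5.33 CPM, KDM5C at 146 ± 3.16 and 143 ± 2.50, KDM5A at 29.3 ± 1.14 and 28.1 ± 1.47, and KDM6A (UTX) at 37.0 ± 1.21 and 38.6 ± 2.90 CPM (SD, n = 3 each). Intervals of their log2 fold changes were -0.07 to 0.09 for KDM3B, -0.10 to 0.03 for KDM5C, -0.17 to 0.05 for KDM5A and -0.06 to 0.17 for KDM6A. Whether a gene differed from its relative in response was not tested. KDM2A and KDM2B, which bind unmethylated CpG islands, were at 139 ± 1.90 and 142 ± 6.29 CPM and at 123 ± 2.83 and 120.3 ± 1.59 CPM. Of the KDM4 demethylases of histone H3 lysines 9 and 36, KDM4A was at 71.4 ± 1.68 and 70.6 ± 2.01, KDM4B at 71.4 ± 3.15 and 76.8 ± 4.60, and KDM4C at 10.7 ± 0.817 and 10.2 ± 1.13 CPM, and KDM4B passed only without SPNS2 library 1 (adjusted p = 0.0349). KDM8 was at 3.51 ± 0.143 and 3.55 ± 0.207 CPM and KDM4D held 72 counts in all. KDM4E and KDM4F had 0 counts in each library, which allows up to 0.0779 to 0.105 CPM at these depths, counting error only.

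Of 11 zinc deacetylases tested 3 rose and 0 fell (27.3% called, beside 24.5% of all features and 11.9% higher), so the share was near the background. These 3 were among the 4 class IIa genes, and whether the classes differed was not tested. Class IIa deacetylases shuttle between nucleus and cytoplasm and repress MEF2 targets. HDAC5 (ENSG00000108840.16) was at 39.9, 38.7 and 38.5 CPM in empty vector libraries 1 to 3 and at 48.2, 49.9 and 50.2 CPM in SPNS2 libraries 1 to 3. The groups stood well apart, and HDAC5 had the smallest adjusted p of the set (log2 fold change 0.34, SE 0.0341, edgeR adjusted p = 5.83e-05). HDAC7 (ENSG00000061273.18), a regulator of lymphoid and endothelial genes, was at 57.2, 55.7 and 55.0 CPM and at 62.4, 61.0 and 59.6 CPM (log2 fold change 0.12, adjusted p = 0.0182). HDAC4 (ENSG00000068024.17) was at 38.4, 36.9 and 37.5 CPM and at 40.4, 40.1 and 40.7 CPM (log2 fold change 0.10, adjusted p = 0.0479). HDAC9, the least expressed of the class, was at 10.9 ± 0.598 and 11.0 ± 0.348 CPM (SD, n = 3 each; interval of the log2 fold change -0.14 to 0.17). The summed level of class IIa was 142 to 146 CPM with the empty vector and 161 to 162 CPM with SPNS2.

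The class IIa count was lower without a library, as was the number of all features called (2246 to 2738, beside 3263). HDAC4 lost its call in all 6 such fits (edgeR adjusted p = 0.0603 to 0.139), at log2 fold changes of 0.09 to 0.12. It also lost it with limma voom (0.0656), with DESeq2 (0.200), without the low-count filter (0.0972) and with the replicate number as a block (0.0854). HDAC7 lost it in 4 of these 6 fits (0.0525 to 0.0756), at 0.11 to 0.12. So HDAC5 alone was called without SPNS2 library 1 or 2 and without empty vector library 2 or 3, while it and HDAC7 were called without empty vector library 1 or SPNS2 library 3.

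Class I deacetylases gave 0 calls among 4, beside 24.5% of all features. Of these deacetylases HDAC1, HDAC2 and HDAC3 are the catalytic subunits of the SIN3, NuRD, CoREST and NCOR complexes. HDAC1 had the highest level per length among deacetylases, 91.2 CPM per kb with the empty vector. It was at 199.5, 191 and 190.2 CPM and at 181, 184 and 193 CPM, and the groups overlapped. HDAC2 was at 199 ± 6.93 and 196 ± 3.45 CPM and HDAC8 at 19.0 ± 0.810 and 20.1 ± 1.25 CPM (SD, n = 3 each). HDAC3 was at 79.3, 79.9 and 80.5 CPM and at 77.0, 73.9 and 76.8 CPM, lower in every SPNS2 library but not past the threshold (log2 fold change -0.07, adjusted p = 0.101). HDAC6, the cytoplasmic tubulin deacetylase, was at 72.9 ± 2.70 and 75.3 ± 1.28, HDAC10, a polyamine deacetylase, at 64.4 ± 2.18 and 64.2 ± 4.54, and HDAC11, which removes long acyl groups, at 3.87 ± 0.674 and 4.60 ± 0.213 CPM, and none of the 3 passed.

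Sirtuins, deacylases that consume NAD, gave 1 rise and 1 fall among 6 tested genes (33.3% called, beside 24.5% of all features). SIRT6 (ENSG00000077463.15), a nuclear enzyme of telomere and DNA repair, was at 19.7, 20.5 and 21.6 CPM in the empty vector libraries and at 16.8, 17.7 and 18.5 CPM in the SPNS2 libraries, and fell by 0.22 in log2 units (SE 0.0567, edgeR adjusted p = 0.0159). SIRT3 (ENSG00000142082.15), the main mitochondrial deacetylase, was at 33.2, 30.3 and 31.5 CPM and at 34.8, 37.1 and 34.8 CPM (log2 fold change 0.17, SE 0.0462, adjusted p = 0.0235). In both genes the groups did not overlap, by a narrow margin. SIRT6 lost its call without SPNS2 library 1 or 2 and without empty vector library 3 (adjusted p = 0.0503 to 0.0674), and SIRT3 without SPNS2 library 2 and without empty vector library 2 or 3 (0.0731 to 0.0865), so that 0 were called without empty vector library 3 or SPNS2 library 2.

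SIRT7, a nucleolar enzyme with the highest level per length among sirtuins (38.6 CPM per kb with the empty vector), was at 68.3, 64.5 and 68.9 CPM and at 67.9, 66.2 and 71.5 CPM and did not pass. SIRT1, the best known nuclear sirtuin, was at 33.8 ± 0.0410 and 33.7 ± 1.03 CPM, and SIRT5, a mitochondrial desuccinylase, at 22.5 ± 0.835 and 22.9 ± 0.632 CPM (SD, n = 3 each). For SIRT1 the interval of the log2 fold change was -0.09 to 0.08. SIRT4 was at 0.571, 0.562 and 0.466 CPM and at 0.771, 0.700 and 0.682 CPM, higher in every SPNS2 library but from 123 counts in all, with an interval of -0.13 to 0.98.

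DNA methyltransferases moved in opposite directions. Of 6 tested DNMT and TET genes 1 rose and 1 fell (33.3% called, beside 24.5% of all features). DNMT1 (ENSG00000130816.17), which copies methylation onto newly made DNA, was at 286, 270.2 and 272 CPM in empty vector libraries 1 to 3 and at 229, 234 and 236 CPM in SPNS2 libraries 1 to 3. It fell by 0.24 in log2 units, with every SPNS2 library below every control (SE 0.0289, edgeR adjusted p = 0.000170). DNMT3A (ENSG00000119772.18), a de novo methyltransferase, was at 140.1, 136 and 138 CPM and at 150.1, 151 and 152 CPM, and rose by 0.13 (SE 0.0267, adjusted p = 0.00438). Both were called without each single library. The ratio of DNMT3A to DNMT1 counts was 0.490, 0.502 and 0.507 in the empty vector libraries and 0.656, 0.646 and 0.645 in the SPNS2 libraries, a description chosen after the values were seen. Per length DNMT1 remained the higher, at 43.1 CPM per kb beside 15.9 CPM per kb for DNMT3A with SPNS2.

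DNMT3B was at 17.9 ± 0.953 and 17.0 ± 0.445 CPM (SD, n = 3 each) and did not pass, and DNMT3L, a regulatory subunit without activity of its own, had 0 counts. The TET oxygenases, which turn methylcytosine into hydroxymethylcytosine, gave 0 calls among 3, beside 24.5% of all features called. TET3 was at 94.8 ± 4.92 and 94.5 ± 3.49 CPM and TET1 at 49.1 ± 2.57 and 48.4 ± 2.92 CPM (SD, n = 3 each). TET2 was at 19.6, 21.8 and 19.5 CPM and at 23.0, 24.0 and 20.7 CPM (log2 fold change 0.16, adjusted p = 0.114 by edgeR) and passed without empty vector library 2 (0.0483) or SPNS2 library 3 (0.0431).

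**Figure D3:**
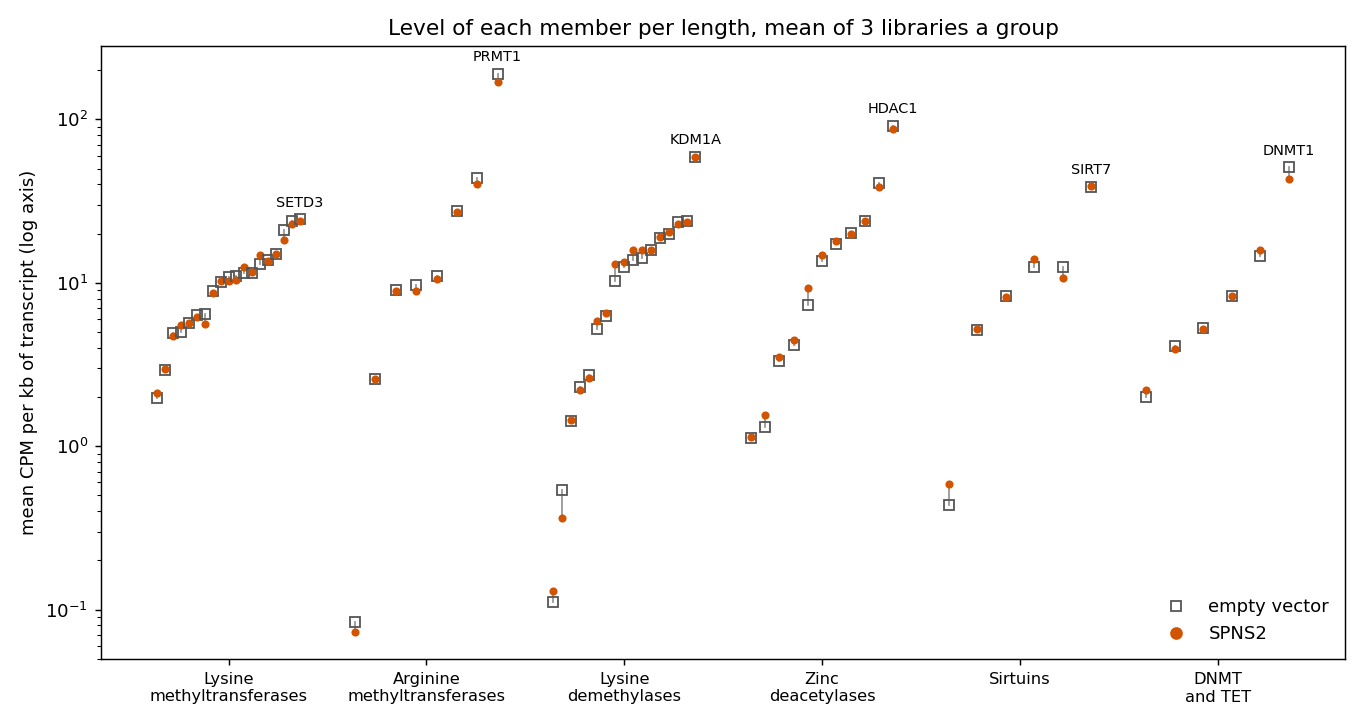
Mean CPM per kb of transcript (y axis, log scale) of each gene with counts, by enzyme class, with empty vector as open squares and SPNS2 as filled circles, means of 3 libraries. Levels span from under 1 to 190.2 CPM per kb, and the gene named in each class is its highest. The length is the longest GENCODE 29 coding transcript, so genes with a shorter main transcript are placed too low.

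Cycling genes were lower in the same libraries. DNMT1 and KMT5A are known to be expressed most in dividing cells. All 16 genes of a list of replication and mitosis genes fell (100% called, beside 24.5% of all features and 12.6% lower). Their summed levels were 3147 to 3230.3 CPM with the empty vector and 2706 to 2717 CPM with SPNS2. The median log2 fold change of the list was -0.23. The falls of DNMT1 (-0.24), SIRT6 (-0.22), SETD7 (-0.21) and KMT5A (-0.21) were near that size, and that of KDM7A (-0.57) was larger. Those of PRMT1 (-0.18) and PRMT5 (-0.12) were smaller, and that of EZH2 (-0.07) did not pass. The part of cycling in the changes of the enzymes was not tested.

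Partners of the enzymes were counted by complex, from lists that are not part of the set. Of 10 tested genes of DNA methylation, 2 fell and 0 rose (20% called, beside 24.5% of all features and 12.6% lower). These were UHRF1, which brings DNMT1 to replicated DNA (log2 fold change -0.31, adjusted p = 5.11e-05 by edgeR), and HELLS, a remodeller needed for methylation (-0.17, adjusted p = 0.0240). Only 1 fell without SPNS2 library 1 or 2. Of 6 arginine methylation partners 1 fell (16.7% called), CARM1, itself an arginine methyltransferase outside the symbol pattern (-0.16, adjusted p = 0.00344). WDR77, the obligate partner of PRMT5, was at 46.7 ± 1.13 and 44.8 ± 1.36 CPM and did not pass (SD, n = 3 each).

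Polycomb partners moved both ways. Of 9 tested genes of this list 2 rose and 1 fell (33.3% called, beside 24.5% of all features). The rises were JARID2 (log2 fold change 0.20, adjusted p = 0.00174 by edgeR) and MTF2 (0.14, adjusted p = 0.0130), which both guide the complex to chromatin. EPOP fell (-0.22, adjusted p = 0.000583). A single rise was called without SPNS2 library 1 or 3 and 2 falls without empty vector library 3. Of 13 partners of the KMT2 and SETD1 enzymes, 5 fell, among them the scaffold WDR5 (-0.17, adjusted p = 0.00852), PSIP1 (-0.15, adjusted p = 0.0107), HCFC1 (-0.12, adjusted p = 0.0269) and CXXC1 (-0.09, adjusted p = 0.0300), and 1 rose, the core subunit DPY30 (0.16, adjusted p = 0.0378), named after its value was seen. These 6 genes were 46.2% of the list, beside 24.5% of all features (12.6% lower). The falls were 3 without SPNS2 library 2 and without empty vector library 1 or 3. They were 2 without SPNS2 library 1 or 3 and without empty vector library 2. With 1 library left out, a rise in this list was called only without empty vector library 3 or SPNS2 library 3. With DESeq2, 0 of these partners rose.

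Of 20 tested partners of class I deacetylases, 3 fell and 0 rose (15% called, beside the 24.5% of all features). These were the NuRD subunits CHD3 (log2 fold change -0.20, adjusted p = 0.00149 by edgeR), MTA3 (-0.36, adjusted p = 0.00301) and GATAD2A (-0.11, adjusted p = 0.0119). A rise was called without empty vector library 1 or SPNS2 library 3. Lysine methyltransferases outside the symbol pattern gave 3 falls and 1 rise among 15 tested genes (26.7% called), and 2 falls with DESeq2 and in 5 of the 6 fits without a library. NSD2, which dimethylates histone H3 lysine 36, fell by 0.20 (adjusted p = 0.000259), DOT1L, the histone H3 lysine 79 methyltransferase, by 0.19 (adjusted p = 0.00131), and SUV39H2 by 0.17 (adjusted p = 0.0456), while SETDB2 rose by 0.20 (adjusted p = 0.00156). EHMT2 and MECOM and, among Polycomb partners, PHF1 and EZHIP were listed at 0 in every library. Whether these genes are silent or their reads were assigned elsewhere cannot be told from these counts.

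Histone acetyltransferases, which act against the deacetylases, gave 2 rises and 0 falls among 12 tested genes (16.7% called, beside 24.5% of all features and 11.9% higher). The genes that rose were CREBBP (log2 fold change 0.15, adjusted p = 0.0392 by edgeR) and NCOA1 (0.18, adjusted p = 0.0411). Both calls were near the threshold. Only 1 gene rose with DESeq2, without the low-count filter or without SPNS2 library 3. In the fits without SPNS2 library 1 or 2 and without empty vector library 2 or 3, 0 rose. A fall of 1 gene was called without empty vector library 1 and also without the low-count filter. Of 15 tested genes that supply cofactors, 4 fell and 3 rose (46.7% called, beside 24.5% of all features). ACLY, which makes acetyl-CoA from citrate, fell by 0.18 (adjusted p = 0.00113), and AHCY, which clears S-adenosylhomocysteine after methyl transfer, by 0.15 (adjusted p = 0.00150). MAT2B, a regulatory subunit of the S-adenosylmethionine synthetase, rose by 0.16 (adjusted p = 0.00665). Without SPNS2 library 1 or 2, and likewise without empty vector library 1 or 3, 2 of the cofactor genes fell.

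**Figure D4:**
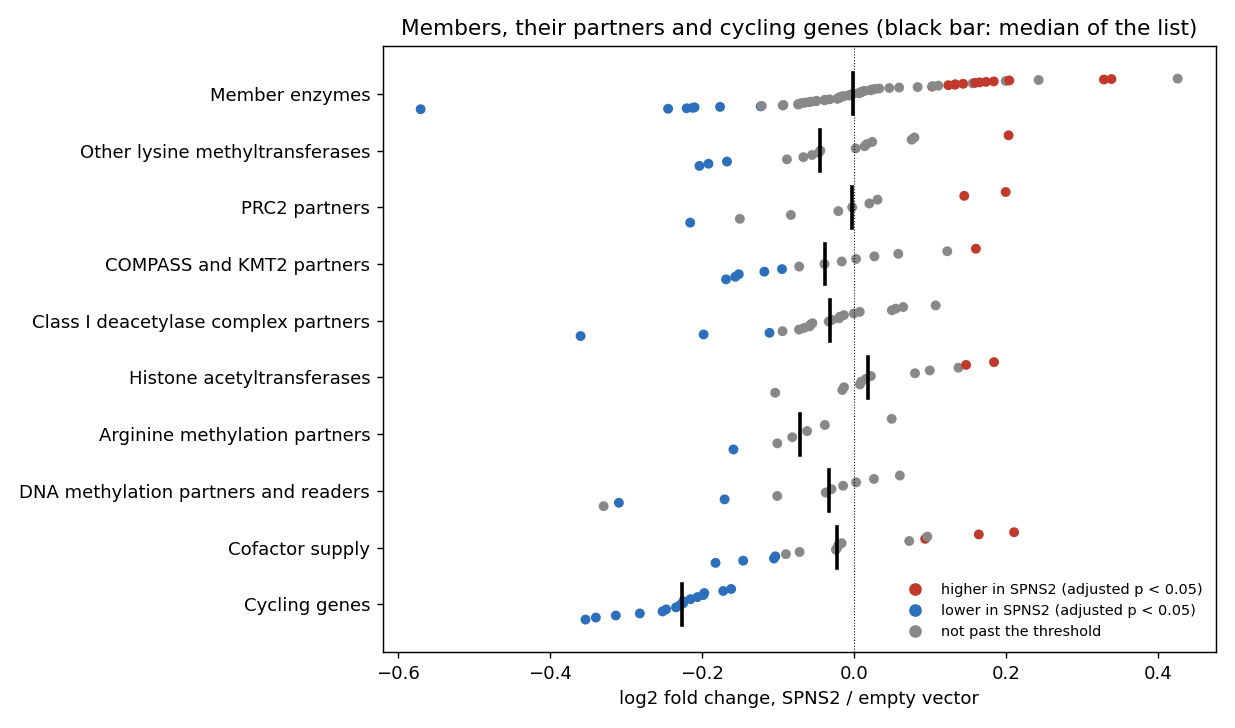
Log2 fold change (x axis, SPNS2 over empty vector) of each tested gene in the enzyme set and in 9 lists of partners and related genes, coloured by call, with a black bar at the median of each list. The medians of the enzyme set and of the partner lists lie between -0.07 and 0.02, and that of the cycling genes at -0.23.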

How the data were processed

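The authors deposited estimated counts per gene as whole numbers, made with Salmon from 6 libraries per the submitters' processing notes. Its version, the genome build and the annotation are not given here. Libraries were made with a stranded TruSeq kit, per the labels' protocols. Symbols were matched for 29121 of 34370 Ensembl identifiers.

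Features were kept by filterByExpr (minimum count of 10 and minimum total of 15), TMM factors were 0.993 to 1.01, and a quasi-likelihood test in edgeR 4.0.16 (R 4.3.3) compared the groups over the 13308 features kept, with no other term. Replicates differed beyond sampling noise (chi-square per degree of freedom 3.11 to 6.09). The SE was derived from F and the log2 fold change. DESeq2 1.42.0, limma voom 3.58.1, other scalings and filters, a block and fits without 1 library were alternatives. The fit was tested on simulated counts. Genes, lists, motifs and tests were chosen with earlier results of these data known. By the naming rule, every gene that passed is given in each library, the others by level, and up to 4 genes with the smallest p of each other list. A gene that this rule would name is not reported here.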

Additional observations from a re-analysis of the deposited data

How the results depend on the processing

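The edgeR counts of modifying enzymes changed little with scaling, filter or tool. With 12 rises and 7 falls in the full comparison, the alternatives for scaling, filtering and tool gave 10 to 12 rises, 6 or 7 falls and 2543 to 3260 called features, of 3263 in the full comparison. At an adjusted p under 0.01, 6 genes rose, 5 fell and 1723 features were called. Without 1 library at a time, 6 to 11 rose, 6 to 8 fell and 2246 to 2738 features were called. Of 918 values of single genes under an alternative, 871 kept their side of the threshold, 42 lost the call and 5 gained it. Called genes reversed in 0 cases, while 52 values of 22 genes without a call changed sign. With the replicate number as a block, 10 rose, 7 fell and 2723 features were called, with the calls of HDAC4 (adjusted p = 0.0854) and KMT5B (0.0529) lost, 0 acetyltransferases called, and 3 falls and 0 rises among KMT2 and SETD1 partners. But deviations of same-numbered libraries correlated at 0.0312, 0.0375 and -0.0193, so the numbers do not show a pairing, and control library 1 correlated better with SPNS2 library 3 than with its own number. Precision limits genes of low level: SIRT4, KDM4D, KDM8, SETD9, HDAC11 and KDM7A had means under 5 CPM and wide intervals.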
